A study of Schizosaccharomyces pombe with 4 samples.

Results

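The genes described here are 7 fission yeast (Schizosaccharomyces pombe) genes grouped under the name thiamine-repressed genes, regulators of the pathway included. They are nmt1 (also called thi3), thi1, thi2, thi4, thi5, thi9 and pho4, chosen by gene symbol, out of 7023 annotated features and 5134 protein-coding genes. RNA was measured on both strands in 4 libraries. Of these, 2 came from the mutant spt6-1 and 2 from the wild type (WT). The gene spt6 encodes a histone chaperone that travels with RNA polymerase II. Per the labels, both strains were prototrophic, both were grown at 30 °C in Yeast Extract Supplemented (YES) medium and both were then held at 37 °C for 2 h, so each difference below is between strains that had the same heat treatment. The labels give no thiamine level for the medium, and no label says that it varied, so repression by thiamine itself could not be checked here. Whether the replicates of a strain were separate cultures is not stated, so p-values measure the spread between these libraries, which may be technical.

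Thiamine is a vitamin whose diphosphate form is a cofactor of pyruvate decarboxylase, pyruvate dehydrogenase and transketolase. Yeasts make it by joining a pyrimidine ring and a thiazole ring, or import it. In fission yeast the genes of this pathway are transcribed when thiamine is scarce and shut off when it is supplied, and the nmt1 promoter (nmt stands for no message in thiamine) is widely used as a switch for expressing other genes.

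Members fall into 4 roles. The biosynthetic genes are nmt1, whose enzyme makes the pyrimidine part, thi2 (also nmt2), whose enzyme makes the thiazole part, and thi4, a bifunctional enzyme that joins the parts and also phosphorylates the thiazole. The uptake gene is thi9, a plasma membrane thiamine transporter. The gene pho4 encodes an acid phosphatase repressed by thiamine. The regulators are thi1, a DNA-binding transcription factor needed to switch the pathway on, and thi5, annotated by RefSeq as another DNA-binding transcription factor.

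The nmt1 promoter is shown because nmt1 was the one member whose sense RNA rose. Its bases were read from the RefSeq genome ASM294v3 at chrIII:1838165-1838414, plus strand, the 250 bases before RefSeq's gene start, with the TATA element TATATAAA and the palindrome CCGG in capitals.
nmt1: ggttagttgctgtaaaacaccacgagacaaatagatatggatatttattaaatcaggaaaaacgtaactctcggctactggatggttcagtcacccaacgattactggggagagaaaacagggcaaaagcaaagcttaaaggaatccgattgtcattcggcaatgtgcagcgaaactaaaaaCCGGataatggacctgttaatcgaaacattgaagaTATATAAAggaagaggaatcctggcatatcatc

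The TATA element of nmt1 starts 33 bases before the RefSeq start. The same stretch of thi2, pho4 and thi4 is shown for comparison, as 60 bases before and 10 bases from the RefSeq start on, at chrII:3940466-3940535 (plus strand), chrII:447019-447088 (minus strand) and chrI:1589873-1589942 (plus strand), with TATATAAA or its shorter form TATAAA in capitals. The table of values starts nmt1, thi2, pho4 and thi4 upstream of RefSeq by 80, 1184, 149 and 190 bp, so these stretches and the TATA element of nmt1 lie inside the features whose reads were counted.
thi2: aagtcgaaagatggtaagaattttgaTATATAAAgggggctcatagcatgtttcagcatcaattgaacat
pho4: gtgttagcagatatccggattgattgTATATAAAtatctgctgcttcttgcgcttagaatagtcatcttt
thi4: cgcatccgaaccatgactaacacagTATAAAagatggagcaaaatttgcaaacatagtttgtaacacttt

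Motifs were searched on both strands in the 300 bases from 250 before to 50 after the RefSeq start. TATATAAA was found in 3 of the 7 members (nmt1, thi2 and pho4), against 392 of 5112 protein-coding promoters, 7.67%. Its positions were alike, 33, 34 and 34 bases before the start of nmt1, thi2 and pho4, while thi2 held a further pair of overlapping matches about 200 bases before its start. TATAAA, which lies within TATATAAA, was found in 6 of the 7 members, against 48.1% of all promoters. In thi4 a match started 35 bases before the gene start, and the regulator gene thi1 had none in this window. The only match in thi9 lay 215 bases before the start, and the only one in thi5 lay on the other strand, 166 bases before. CCGG, chosen after the promoters had been read, was found in 4 of the 7, namely nmt1, thi2, thi9 and pho4, against 14.2% of all promoters. In thi9 it occurred 3 times, starting 63, 49 and 40 bases before the start. These matches describe the letters only, and thi2 and pho4, which share TATATAAA with nmt1, did not pass the sense test below.

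The series as a whole sets the scale. The unit is RPKM, reads per kilobase of a feature scaled by the size of the library, and whole reads were recovered from it (sense RPKM divide by exon length, antisense RPKM by the whole span). Sense reads numbered 39693042 and 16894607 in spt6-1 and 36520471 and 17093322 in WT, in the order of the replicates. In spt6-1 replicate 1 the sense reads were 141.8% of the denominator, against 97.8% to 101.7% in the other 3 libraries. In the order of the replicates, rRNA took 17.8% and 3.73% of the sense reads in spt6-1 and 12.8% and 6.43% in WT. Over protein-coding genes the median sense RPKM were 28.6 and 28.1 in spt6-1 and 27.0 and 28.2 in WT. The median antisense RPKM were 3.97 and 3.43 in spt6-1 and 0.496 and 0.462 in WT. The spt6 transcript, a check of the labels, was at 12.7 and 8.32 RPKM in spt6-1 and 65.5 and 61.6 in WT.

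On the sense strand nmt1 rose in spt6-1 and the other 6 members did not pass the test. Both spt6-1 libraries had 13.6 and 12.06 RPKM of nmt1 RNA (453 and 248 reads), against 0.795 and 0.830 RPKM in WT (34 and 17 reads). The groups did not overlap, and each spt6-1 library was far above both WT libraries. The log2 change was 3.34 ± 0.21 (limma on log2(RPKM + 0.5), SE, adjusted p = 1.06e-04), which is 10.1-fold on this scale, while the plain ratio of the mean RPKM was 15.8. With 1 library left out in turn it ranged from 3.26 to 3.42. WT nmt1 stood below the minimum of 1 RPKM, so nmt1 entered the fit only through its 2 spt6-1 libraries, and a member that enters this way had to differ.

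The count of 1 member higher and 0 lower of 7 is to be read against all features. Of 6547 features tested 28.5% were called, 21.8% higher and 6.67% lower, and of the 5060 protein-coding genes among them 20.3% were called. The share of members was near this background. The median log2 change was 0.33 for the members, 0.16 for all features and 0.03 for protein-coding genes. At an unadjusted p under 0.05 limma gave 2 members higher and 0 lower, as did voom on the recovered reads.

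Even in spt6-1, nmt1 remained a weakly expressed gene. It stood at the 23.9 and 21.8 percentiles of protein-coding genes by sense RPKM in spt6-1 replicates 1 and 2, against 3.14 and 3.54 in WT. It was the lowest of the 7 members in all 4 libraries.

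**Figure D1:**
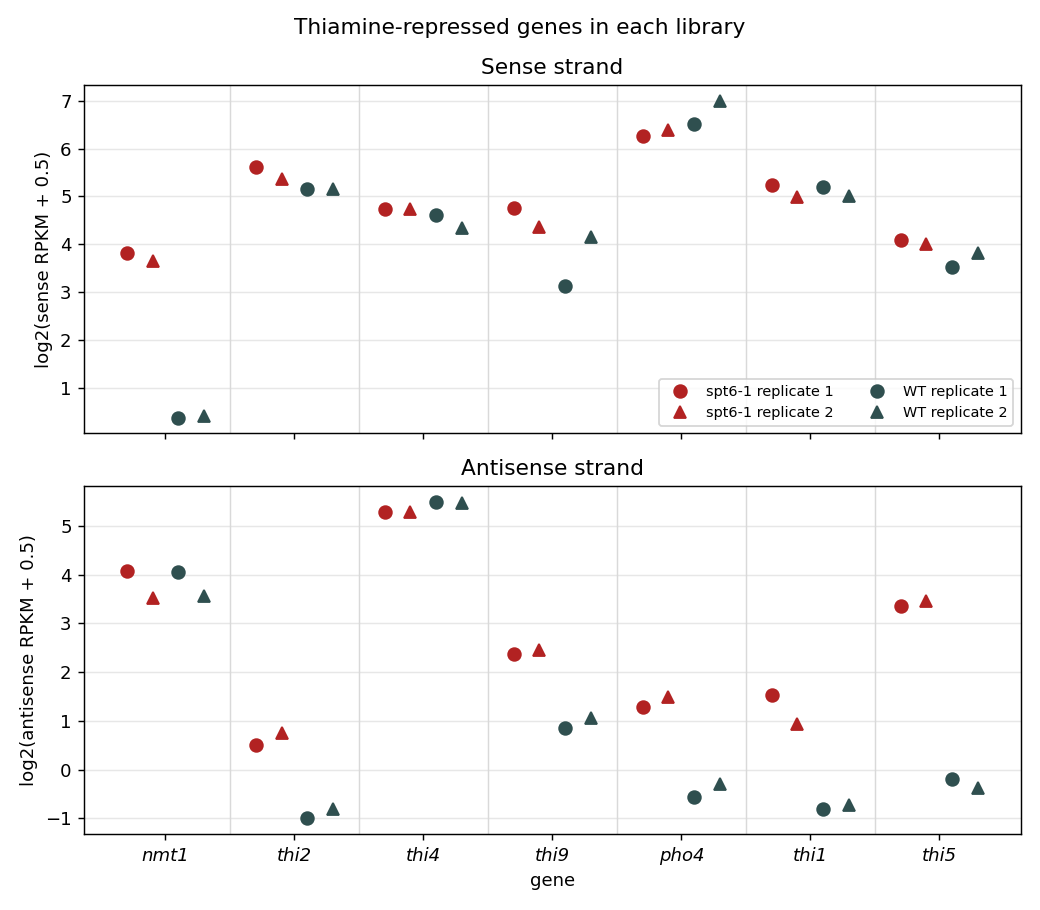
Level of each gene in each library, as log2(RPKM + 0.5), on the sense strand (upper) and the antisense strand (lower); red points are spt6-1, dark points WT, circles replicate 1 and triangles replicate 2. The sense points of nmt1 are about 13 RPKM in spt6-1 and under 1 RPKM in WT, while on the antisense strand nmt1 and thi4 are high in all 4 libraries.

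The other biosynthetic genes were expressed at moderate levels in both strains. For thi2 the sense level was 48.2 and 40.6 RPKM in spt6-1 and 34.9 and 35.2 in WT. Its groups did not overlap, but the log2 change of 0.33 ± 0.20 did not pass (adjusted p = 0.265 by limma). For thi4 it was 26.0 and 26.3 RPKM in spt6-1 and 24.0 and 19.8 in WT, a log2 change of 0.26 ± 0.19 (adjusted p = 0.353 by limma). The thi2 enzyme makes the thiazole part, which the thi4 enzyme phosphorylates and joins to the pyrimidine part. The annotated thi2 feature reaches 1232 bp upstream of its 987 bp coding sequence, and RefSeq starts the gene 1184 bp further downstream, so its RPKM are averages over a span longer than the RefSeq gene.

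The transporter gene thi9 had 26.5 and 20.0 RPKM in spt6-1 and 8.29 and 17.3 RPKM in WT. Both spt6-1 values lay above both WT values, but the WT libraries differed more from each other than WT replicate 2 did from spt6-1 replicate 2. The log2 change was 0.91 ± 0.34 and did not pass (adjusted p = 0.0957 by limma). Without WT replicate 2 it was 1.42 and passed (adjusted p = 0.0156), and without WT replicate 1 it was 0.40 (adjusted p = 0.368). This feature also has a long leader, 1433 bp in the table, of which RefSeq's gene leaves out 1018 bp. SPNCRNA.171 lies in it on the same strand, over 337 bp, with 6 and 4 reads in spt6-1 and 17 and 8 in WT (no call, adjusted p = 0.127 by limma).

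The phosphatase gene pho4 had the highest sense RPKM of the members over the annotated features, with 76.6 and 83.2 in spt6-1 and 91.4 and 127 in WT. Both spt6-1 libraries lay under both WT libraries. The log2 change of -0.43 ± 0.25 did not pass (adjusted p = 0.251 by limma).

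Neither regulator gene passed the test on the sense strand. For thi1 the level was 37.0 and 31.1 RPKM in spt6-1 and 35.9 and 31.7 in WT, so the groups overlapped, and the log2 change was 0.01 ± 0.20 (adjusted p = 0.987 by limma). For thi5 it was 16.4 and 15.6 RPKM in spt6-1 and 11.05 and 13.6 in WT, a log2 change of 0.37 ± 0.19 (adjusted p = 0.192 by limma). Both thi5 values in spt6-1 were above both in WT.

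In spt6-1 the order of sense levels per kilobase was pho4, then thi2, then thi1, then thi4 and thi9, which overlapped, then thi5 and last nmt1. In WT it was pho4, then thi1 and thi2, which overlapped, then thi4, then thi9 and thi5, which overlapped, and last nmt1. Both orders depend on the annotated spans, which for thi2 and thi9 include the long leaders given above. Over the 2184 bp of thi4 outside the opposite-strand gene cdb4, thi4 sense RNA was at 39.3 and 39.8 RPKM in spt6-1. In WT it was at 37.5 and 30.9 RPKM there. On that stretch thi4 stood above thi1 in spt6-1 and overlapped it in WT. With the median feature set to no difference, a shift of 0.16 on the log2 scale, the sense change of thi1 was -0.15 and that of nmt1 3.18, so thi1 has no settled direction.

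Plus-strand reads around nmt1 lay mostly within the gene in spt6-1. The nmt1 feature (SPCC1223.02, chromosome III, 1838335 to 1839525, plus strand, 1 exon, ASM294v2) lies wholly inside the opposite-strand non-coding RNA prl10 (SPNCRNA.1234, 1837499 to 1840092). Plus-strand reads over the 1403 bp of prl10 outside nmt1 came to 1.15 and 0.990 RPKM in spt6-1 and 0.496 and 0.580 in WT. That stretch includes part of the plus-strand RNA SPNCRNA.504 (1839578 to 1840266), so these values and those of SPNCRNA.504 below may share reads. Inside nmt1 the same strand had the 13.6 and 12.06 RPKM given above in spt6-1. As a result 91.0% and 91.2% of the plus-strand reads of the prl10 interval were in nmt1 in spt6-1, against 57.6% and 54.8% in WT. The protein-coding gene SPCC1223.01, 870 bp upstream on the same strand, moved the other way, with 20.4 and 16.0 RPKM in spt6-1 and 34.7 and 30.2 in WT (log2 change -0.82 ± 0.21, adjusted p = 0.0270 by limma). Downstream, 52 bp from nmt1, SPNCRNA.504 had 1.66 and 2.02 RPKM in spt6-1 and 2.59 and 1.94 in WT and did not pass (adjusted p = 0.543 by limma). On the antisense strand SPCC1223.01 rose, with 20.4 and 14.7 RPKM in spt6-1 and 0.214 and 0.284 in WT (log2 change 4.57 ± 0.22, adjusted p = 6.57e-07 by limma). It entered the antisense fit only through its spt6-1 libraries, so it had to differ, and 81.9% of all genes tested there were called higher.

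**Figure D2:**
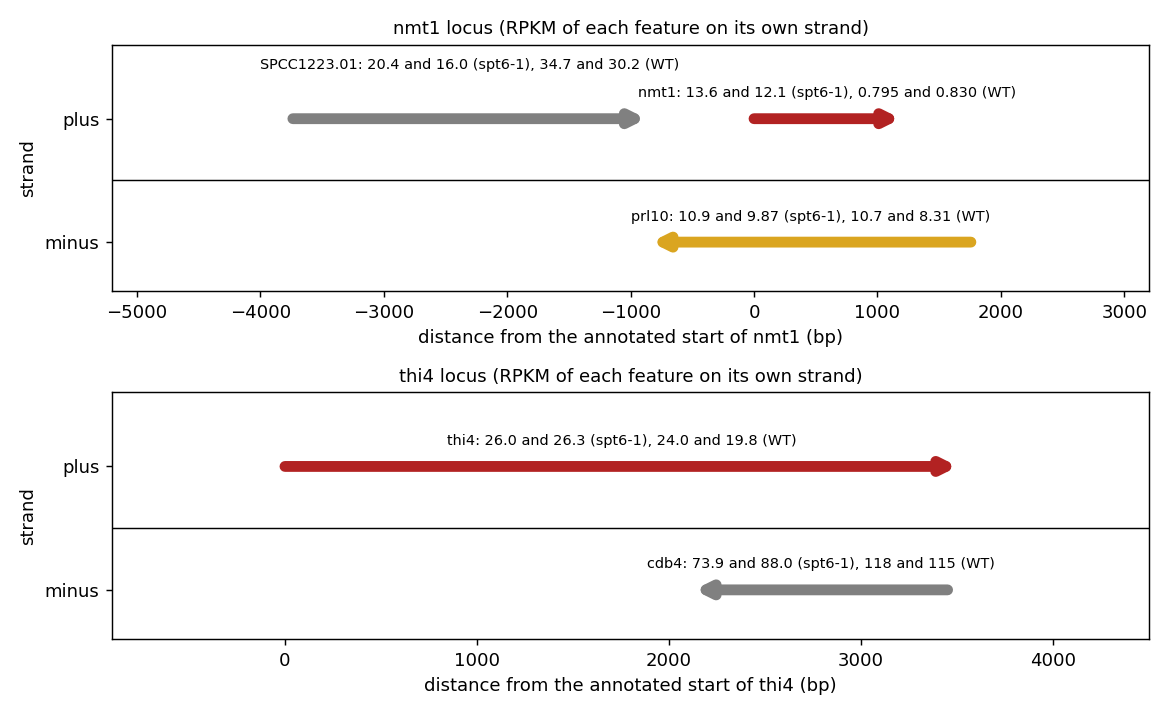
Maps of the nmt1 and thi4 loci by strand, with distance in bp from the annotated start of each gene; arrows are annotated features (red the member, grey other coding genes, yellow a non-coding RNA), each with its own-strand RPKM in replicates 1 and 2. The RNA prl10 covers nmt1 from the opposite strand at 10.9 and 9.87 RPKM in spt6-1 and 10.7 and 8.31 in WT. The gene cdb4 lies opposite the last part of thi4. The plus-strand RNA SPNCRNA.504 downstream of nmt1 is not drawn.

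On the antisense strand the members split into a group of 5 that rose and a pair that did not pass, nmt1 and thi4. The 5 were thi1, thi2, thi5, thi9 and pho4, higher in spt6-1 by 2.75-fold to 12.99-fold on the log2(RPKM + 0.5) scale. This count of 5 higher and 0 lower of 7 stands against 83.5% of 4728 protein-coding genes called, 81.9% higher and 1.65% lower, so it is near the background. The median antisense log2 change was 1.53 for the members and 1.58 for all genes tested. Of the 5, thi1, thi2, thi5 and pho4 entered the fit only through their spt6-1 libraries, because WT stood below the minimum of 0.5 RPKM, while thi9 was above it in all 4 libraries. Relative to the median gene the count was 1 higher, thi5, and 2 lower, nmt1 and thi4. Of the others, thi1 and pho4 no longer passed, and thi2 and thi9 turned to slightly negative values that did not pass. The thi4 value is mostly RNA of the opposite-strand coding gene cdb4, which gave 99.1% and 99.4% of its antisense reads in WT. In the rest of thi4 the minus-strand level was higher in spt6-1, as given below.

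The regulator gene thi5 (SPBP8B7.30c, chromosome II, 3694964 to 3697783, minus strand) had the largest antisense rise of the 7 on the log2(RPKM + 0.5) scale, while by voom on the recovered reads thi2 had a larger one (5.67, against 4.91 for thi5). Its antisense RNA was at 9.80 and 10.5 RPKM in spt6-1 (774 and 512 reads), against 0.375 and 0.268 RPKM in WT (38 and 13 reads). The log2 change was 3.70 ± 0.21 (adjusted p = 9.51e-07 by limma), above the 95th percentile of all protein-coding genes, which was 3.56. The plain ratio of mean RPKM was 31.6, since the pseudocount shrinks folds of genes near 0 in WT. Relative to the median gene the log2 change of thi5 was 2.11 (adjusted p = 1.08e-04). Per kilobase the antisense RNA of thi5 reached 0.598 and 0.674 of the sense RNA in spt6-1, against 0.0340 and 0.0197 in WT. No annotated feature overlaps thi5.

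The other regulator gene, thi1 (SPAC1486.10, chromosome I, 3211823 to 3214509, plus strand), had 2.38 and 1.40 antisense RPKM in spt6-1 (179 and 65 reads) and 0.0725 and 0.108 in WT (7 and 5 reads). The groups were far apart, with a log2 change of 1.99 ± 0.23 (adjusted p = 2.56e-05 by limma) and a plain ratio of mean RPKM of 20.9. Antisense RNA stayed a small part of the RNA at thi1, 0.0644 and 0.0451 of the sense level per kilobase in spt6-1. No annotated feature overlaps thi1 either.

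At thi2 (SPBC26H8.01, chromosome II, 3939342 to 3941699, plus strand) antisense RNA was at 0.924 and 1.18 RPKM in spt6-1 (61 and 48 reads) and at 0 and 0.0740 RPKM in WT (0 and 3 reads). A count of 0 allows up to 3 reads, 0.0354 RPKM, in WT replicate 1, a limit that covers counting error only. The log2 change of 1.53 ± 0.17 (adjusted p = 2.17e-05 by limma) depends on the pseudocount, being 3.12 with 0.1 and 0.98 with 1, and it was 5.67 by voom on the recovered reads. This was the lowest antisense level among the 7 in both spt6-1 libraries.

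At pho4 (SPBC428.03c, chromosome II, 445324 to 447177, minus strand) antisense RNA was at 1.95 and 2.31 RPKM in spt6-1 (101 and 74 reads) and at 0.180 and 0.314 in WT (12 and 10 reads). The groups did not overlap, with a log2 change of 1.82 ± 0.20 (adjusted p = 2.34e-05 by limma) and a plain ratio of 8.62. SPNCRNA.1358 overlaps the end of pho4 from the opposite strand by 114 bp, and its own level of 8.14 and 8.92 RPKM in spt6-1 and 8.79 and 7.50 in WT did not pass (adjusted p = 0.823 by limma).

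At thi9 (SPAC9.10, chromosome I, 1481401 to 1484752, plus strand) antisense RNA was present in both strains, at 4.65 and 4.99 RPKM in spt6-1 and 1.30 and 1.58 in WT. All spt6-1 values were above all WT values, with a log2 change of 1.46 ± 0.21 (adjusted p = 1.01e-04 by limma). The opposite-strand RNA SPNCRNA.743 covers 1170 bp of the long leader, and its own change did not pass (154 and 113 reads in spt6-1, 95 and 68 in WT, adjusted p = 0.0717 by limma). Taking away all reads of SPNCRNA.743, including those outside thi9, leaves at least 282 and 176 antisense reads in spt6-1 and at least 61 and 23 in WT. Over the 2182 bp that SPNCRNA.743 does not cover, these are at least 4.62 and 4.67 RPKM in spt6-1 and at least 0.778 and 0.613 in WT. Being lower bounds in each library, they do not fix the size of the difference between the strains.

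RNA opposite nmt1 was high in both strains, at 16.3 and 11.03 RPKM in spt6-1 (543 and 227 reads) and 16.2 and 11.3 in WT (694 and 232 reads). Each replicate 1 was higher than each replicate 2, whichever the strain, so the groups overlapped. The log2 change of -0.02 ± 0.25 did not pass (adjusted p = 0.959 by limma), and relative to the median gene it was -1.61 and passed (adjusted p = 6.90e-04). These are reads that also count as sense reads of prl10, of which they made up 68.7% and 51.4% in spt6-1 and 69.5% and 62.5% in WT. As a feature prl10 had 10.9 and 9.87 RPKM in spt6-1 and 10.7 and 8.31 in WT, with no call (adjusted p = 0.671 by limma).

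The balance of strands at nmt1 changed. Antisense RNA was 1.20 and 0.915 times the sense RNA per kilobase in spt6-1, against 20.4 and 13.6 times in WT. The log2 antisense to sense ratio changed by -3.36 ± 0.31 (adjusted p = 8.29e-06 by limma). Of 4682 genes tested in this way 77.7% were called, 71.7% with a higher ratio in spt6-1 and 6.04% with a lower one. Among the 7 members 4 were higher (thi1, thi2, thi5 and pho4) and nmt1 alone was lower, while thi4 and thi9 did not pass. Each of these 5 passed a filter only through spt6-1, nmt1 on the sense strand and the other 4 on the antisense strand, so the filter favours the direction of each call. Relative to the median gene the count was 1 higher, thi5, and 3 lower, nmt1, thi9 (-1.04) and thi4 (-2.05). Of the others, thi1 and pho4 no longer passed, and thi2 was at -0.39 without passing. The antisense reads behind the thi4 value were mostly those of cdb4.

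**Figure D3:**
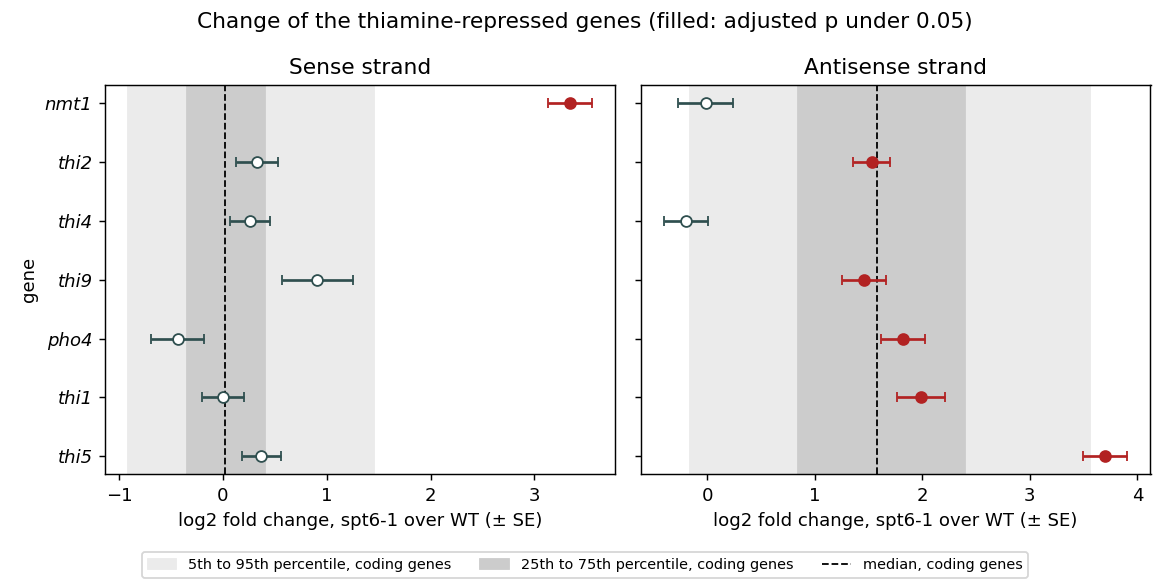
Log2 fold change of spt6-1 over WT for each gene with its SE, sense on the left and antisense on the right; filled red points have an adjusted p under 0.05, and the bands give the spread over all protein-coding genes tested. Sense nmt1 at 3.34 lies beyond the 95th percentile of coding genes (1.46), and on the antisense strand thi5 does so, while thi1, thi2, thi9 and pho4 lie near the median and are not called higher once that median is set to no difference.

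The antisense value of thi4 joins unlike stretches. The feature (SPAC23H4.10c, chromosome I, 1589743 to 1593248, plus strand) runs 1592 bp past its coding sequence and contains the whole of cdb4, a protein-coding gene on the minus strand (1591873 to 1593194). Antisense RNA over the whole feature was at 38.3 and 38.7 RPKM in spt6-1 and 44.7 and 43.7 in WT, the highest of the 7 members, and did not pass (log2 change -0.20 ± 0.20, adjusted p = 0.387 by limma). In spt6-1 72.8% and 85.8% of these reads were sense reads of cdb4, against 99.1% and 99.4% in WT.

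Away from cdb4 the minus strand of thi4 differed between the strains. Over the remaining 2184 bp there were 1023 and 332 reads in spt6-1 and 50 and 17 in WT. That is 16.7 and 8.80 RPKM in spt6-1 and 0.637 and 0.453 in WT, so the groups did not overlap, and spt6-1 replicate 1 was well above spt6-1 replicate 2. The cdb4 transcript was at 73.9 and 88.0 RPKM in spt6-1 and 118 and 115 in WT, a log2 change of -0.53 ± 0.23 that did not pass (adjusted p = 0.134 by limma). The split was chosen after the values were seen and takes every read of cdb4 as also counted in thi4, so it is given with no test. Sense reads of thi4 were mostly outside the shared stretch, which held 6.06% and 5.77% of them in spt6-1 and 2.78% and 2.77% in WT.

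**Figure D4:**
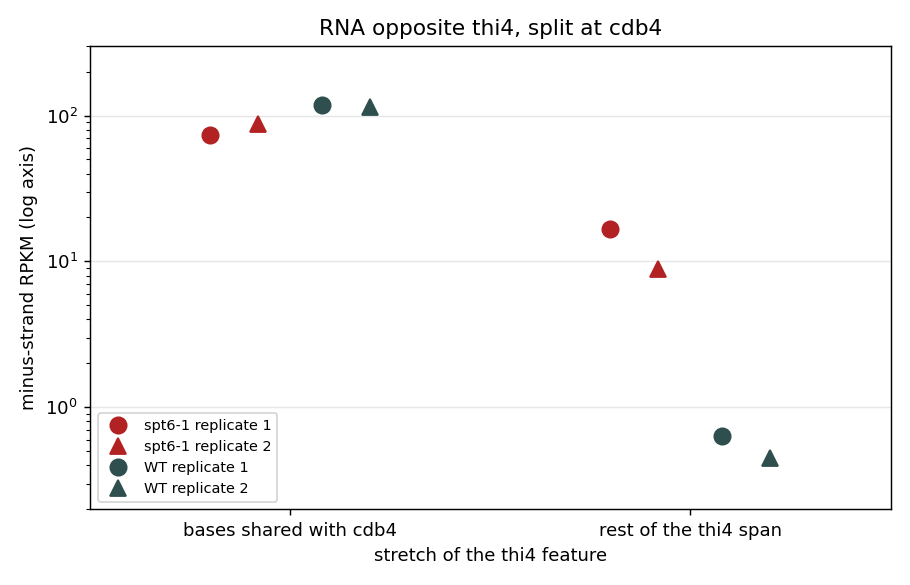
Minus-strand RPKM (log axis) in the bases that thi4 shares with cdb4 and in the rest of the thi4 span, for spt6-1 (red) and WT (dark), circles replicate 1 and triangles replicate 2. Over cdb4 the spt6-1 libraries are at 73.9 and 88.0 and the WT libraries at 118 and 115, while in the rest of thi4 they are at 16.7 and 8.80 in spt6-1 and 0.637 and 0.453 in WT.

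The genes most like nmt1 over both strands and all 4 libraries (8 values) were crp79, SPBPB2B2.11 and mde1, at Euclidean distances of 1.41, 1.54 and 1.74 on the log2(RPKM + 0.5) scale. For crp79 (chromosome I, 1792433 to 1794994) the sense level was 9.47 and 7.28 RPKM in spt6-1 and 1.01 and 0.603 in WT. Its antisense level was 13.02 and 13.6 RPKM in spt6-1 and 8.81 and 16.2 in WT. Like nmt1, all 3 had more antisense than sense RNA per kilobase in WT. For mde1 the sense level was 7.19 and 6.87 RPKM in spt6-1 and 1.63 and 1.34 in WT. At SPBPB2B2.11 the antisense level was 19.5 and 17.1 RPKM in spt6-1 and 8.20 and 8.49 in WT, so there the antisense groups did not overlap. These genes were picked for their likeness, so their values are a description.

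Other genes of thiamine use were listed by name. Of 5 further thiamine genes, 0 passed on the sense strand by limma, and 0 by voom on the recovered reads. At an unadjusted p under 0.05 each gave 1, a lower value, and the median log2 change was 0.08. They were bsu1, annotated as a vitamin uptake carrier, tnr3, which makes thiamine diphosphate, the phosphomethylpyrimidine kinase genes SPBP8B7.17c and SPBP8B7.18c, and SPBC530.07c of the TENA/THI family. The lowest was SPBC530.07c, at 13.3 and 10.6 RPKM in spt6-1 and 20.3 and 16.4 in WT (adjusted p = 0.0754 by limma). On the antisense strand 2 of the 4 tested, bsu1 and SPBP8B7.17c, were called higher, against 81.9% of all genes tested.

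Of 8 genes of enzymes that use thiamine diphosphate 3 rose on the sense strand and 0 fell, with kgd1 not analysed here. This count stands beside the 20.3% of protein-coding genes called in either direction, and 610 of 5060 called higher. All 3 are annotated as pyruvate decarboxylase genes. SPAC3G9.11c had 56.0 and 26.2 RPKM in spt6-1 and 1.62 and 2.89 in WT (log2 change 3.86 ± 0.39, adjusted p = 7.51e-04 by limma). SPAC186.09, which entered the fit only through spt6-1, had 710 and 218 reads in spt6-1 and 3 and 4 in WT (log2 change 4.21 ± 0.36, adjusted p = 3.84e-04 by limma). It lies near an end of chromosome I, at 5552811 to 5554529. SPAC13A11.06 had 11.10 and 15.5 RPKM in spt6-1 and 6.66 and 4.70 in WT (adjusted p = 0.0154 by limma). The pyruvate decarboxylase gene with the highest level, SPAC1F8.07c, had 3082 and 1960 RPKM in spt6-1 and 3269 and 2096 in WT and did not pass (adjusted p = 0.899 by limma). On the antisense strand 5 of the 6 tested were higher, near the background of 81.9%. Of these, SPAC186.09, pda1, pdb1 and ilv1 entered that fit only through their spt6-1 libraries.

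Among 3 acid phosphatase genes set beside pho4, pho1 rose (1 of 3, beside 20.3% of protein-coding genes called in either direction and 610 of 5060 called higher). It had 1206 and 1025 RPKM in spt6-1 and 62.9 and 206 in WT (adjusted p = 0.00582 by limma). SPBC21H7.03c and SPBC4.06 did not pass. On the antisense strand both genes tested, SPBC21H7.03c and SPBC4.06, were called higher, as were 81.9% of all genes tested. Both entered that fit only through their spt6-1 libraries. The genes pho4 and pho1 had estimates of opposite sign, -0.43 and 3.28 on the log2 scale, of which the pho4 value did not pass. The coding sequence of pho4 has its longest match elsewhere in the genome over 1375 bp at 75.2% identity, that of thi9 over 262 bp at 67.6%, and no other match was found for nmt1, thi1, thi2, thi4 or thi5, by blastn.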

How the data were processed

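RNA was poly(A)-selected and strand-specific libraries were made by ligating adaptors to RNA fragments, per the labels' protocols. Reads were aligned with TopHat to ASM294v2, per the submitters' processing notes. How reads with shared or multiple positions were counted is not stated in those notes. The authors deposited RPKM per feature, sense and antisense, for all 4 libraries. A deposited junction list holds positions only and was not used.

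Whole reads were recovered from the RPKM: 100% of values were whole within 0.01 read. Values were tested as log2(RPKM + 0.5) with limma 3.58.1 in R 4.3.3 (eBayes with trend, two-sided, Benjamini-Hochberg over every feature tested, threshold 0.05), with no covariate. Sense features had 1 RPKM or more in at least 2 libraries, and antisense protein-coding genes 0.5 RPKM or more. The ratio test used genes past both filters. On simulated reads with 200 genes changed 8-fold, 100% were recovered on each strand (6564 features tested on the sense strand, 4575 on the antisense strand). The changed genes were drawn only from coding genes well above the minimum in every library, with the same fixed spread for all genes. So the simulation does not cover genes that lie under a minimum in WT, such as nmt1 on the sense strand.

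Named genes were all 7 members, every overlapping feature, the neighbours of nmt1, the listed genes of thiamine use and the 3 coding genes closest to nmt1. The members and lists were chosen with earlier results of these data known. All 7 members matched RefSeq (ASM294v3). Chromosome sequences were read at RefSeq's own gene positions and blastn 2.17.0 searched for copies. Of 5106 coding genes matched by identifier, 4991 have the same coding ends in the table. Fixed alternatives were other pseudocounts, filters, scalings, no trend, voom on recovered reads, a replicate block and each library left out. A planned edgeR count test was not run, because the deposited unit is RPKM, and voom on the recovered reads was run instead.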

Additional observations from a re-analysis of the deposited data

How the results depend on the processing

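The sense count of 1 member (nmt1, higher) held under each alternative run except without WT replicate 2, where it was 2, since thi9 was also higher, so leaving out single libraries gave 1 to 2. The antisense count of 5 was 5 with each library left out, and 3 both with the median gene set to no difference and after quantile normalization (1 higher, thi5, and 2 lower, nmt1 and thi4), since the antisense median of all genes moved by 1.58. It was 4 with the stricter filter, under which thi2 was not tested. The lower antisense values of thi4 cover the whole feature, cdb4 included. The ratio count of 5 was 4 to 6 under all alternatives run, and 5 to 6 with a library left out, thi9 being also higher (0.95) without WT replicate 1. The members behind the ratio count changed, being 4 higher and 1 lower in the main fit. With the median gene set to no difference there were 1 higher (thi5) and 3 lower (nmt1, thi4 and thi9). Quantile normalization gave the same calls. With a pseudocount of 1 the ratio change of thi2 was 0.66 and did not pass (adjusted p = 0.0536 by limma). Signs turned for values that had not passed or that lay near the antisense median. The sense change of thi1 was -0.15 with the median feature set to no difference, -0.12 after quantile normalization, -0.17 scaled by protein-coding reads, and between -0.12 and 0.13 with 1 library left out, being -0.12 without spt6-1 replicate 1 and -0.08 without WT replicate 2. The antisense change of nmt1 lay between -0.29 and 0.26 with 1 library left out, being 0.26 without spt6-1 replicate 2 and 0.23 without WT replicate 1. With the median gene set to no difference the antisense changes of thi2 and thi9 were -0.062 and -0.13 and their ratio changes -0.39 and -1.04. After quantile normalization the antisense changes of thi9 and pho4 were -0.49 and -0.17, and the ratio changes of thi2 and thi9 were -0.21 and -1.40. The cause of these turns beyond the shift of the median was not tested. Replicate numbers are shared between the strains as numbers only. Same-numbered libraries deviated together across features at r = 0.32 (sense) and 0.20 (antisense), and with the replicate block the counts were 1, 5 and 5, with no member's call changed. The planned edgeR test was not run. Few reads limit the antisense values of thi2 and thi1 in WT (0 to 7 reads).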
